A study of Rattus norvegicus with 38 samples.

Results

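Small leucine-rich proteoglycans and microfibril proteins were followed in rat heart transplants through 7 genes, Ogn, Dcn, Lum, Bgn, Fmod, Mfap4 and Fbn1. All probesets annotated to these symbols on the heart array were taken, which gave 11 of the 15866 non-control probesets: 4 for Ogn, 2 for Fbn1 and 1 for each of the other 5 genes. The genes were selected on their difference between rejected and accepted grafts, so every value that involves the allografts is a description and carries no test. The 18 hearts comprise 5 DA allografts rejected by BN (Brown Norway) recipients, 4 DA (Dark Agouti) isografts accepted by DA recipients, the 5 native BN hearts of the allograft recipients and the 4 native DA hearts of the isograft recipients. All grafts were DA hearts placed in the abdomen beside the recipient's own heart, all hearts were taken on post-transplant day 6, and RNA came from whole cross-sections of both ventricles and the septum. Hearts that carry the same number, 1 native and 1 transplanted, came from 1 recipient. The native BN hearts all came from rats that were rejecting a graft, so strain and type of graft cannot be told apart in the native hearts, and no heart of an untransplanted rat was analysed here. Signals are given as multiples of the median signal of the same array.

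Decorin, lumican, biglycan, fibromodulin and osteoglycin are secreted proteoglycans with a leucine-rich core protein, and several of them bind collagen and shape how its fibrils assemble. Decorin and biglycan also bind transforming growth factor beta (TGF-beta). Fibrillin-1, the product of Fbn1, forms the microfibrils that scaffold elastic fibres and anchor latent TGF-beta, and microfibril-associated protein 4, the product of Mfap4, associates with them. In the heart these proteins are known chiefly as products of fibroblasts and of other matrix-forming cells. In whole tissue, fewer cells of a type and less RNA per cell cannot be told apart.

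Summed marker signals of several cell types differed between the groups. The summed signal of 6 measured heart muscle markers was 73.5 to 182 array medians in allografts, 381 to 666 in isografts, 458 to 642 in native BN and 515 to 803 in native DA hearts. The sum of 7 leukocyte markers was 131 to 236 in allografts, 34.3 to 62.6 in isografts, 16.3 to 28.6 in native BN and 14.7 to 20.1 in native DA hearts. The sum of 7 fibroblast markers was 21.6 to 169 in allografts, 136 to 193 in isografts, 32.5 to 39.9 in native BN and 32.6 to 44.4 in native DA hearts. In both graft groups this sum is mainly collagen signal, but in native hearts Dpt was as high as Col3a1. The geometric mean of Dpt was 12.8 array medians in native BN and 14.3 in native DA hearts, against 11.3 and 12.8 for Col3a1. In allografts the geometric means of Col1a1, Col1a2 and Col3a1 were 25.2, 14.7 and 26 array medians. Those of Pdgfra, Thy1, Dpt and Tcf21 were 0.498, 1.05, 1.35 and 0.305. At the group median, all 6 muscle markers reached the array median in both native groups and in isografts, while Ryr2 was below it in allografts. Thy1 was below the array median in isografts and both native groups, and Pdgfra, Thy1 and Tcf21 were below it in allografts. All 7 leukocyte markers reached it in allografts, 3 in isografts and 2 in each native group. The sum of 6 mural and smooth muscle markers was 6.15 to 9.64 in allografts, 11.8 to 20.2 in isografts, 10.7 to 17.9 in native BN and 9.41 to 10.6 in native DA hearts. For 4 endothelial markers the sums overlapped in allografts (10.7 to 14), isografts (12.6 to 13.6) and native DA hearts (10.8 to 13.3). In native BN hearts the endothelial sum was 16.5 to 21.4. The part of these shifts in the member values was not tested.

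The promoter windows of Ogn, Lum and Fbn1 are shown because these genes span the range of behaviour described next: Ogn was far below every other group in allografts, Lum was lower mainly against isografts, and Fbn1 overlapped the native hearts. Of the 7 genes, 4 have a window in the RefSeq table of the rat assembly GRCr8, each reaching 250 bases upstream and 50 downstream of the gene start. The windows lie at chr17:15258946-15259245 (minus strand) for Ogn, chr7:34245456-34245755 (plus strand) for Lum and chr3:133203341-133203640 (minus strand) for Fbn1. Capitals mark matches on either strand to the TATA box motif TATAAA, the Smad-binding core CAGAC, the AP-1 motif TGANTCA or the TEAD motif GGAATG.
Ogn: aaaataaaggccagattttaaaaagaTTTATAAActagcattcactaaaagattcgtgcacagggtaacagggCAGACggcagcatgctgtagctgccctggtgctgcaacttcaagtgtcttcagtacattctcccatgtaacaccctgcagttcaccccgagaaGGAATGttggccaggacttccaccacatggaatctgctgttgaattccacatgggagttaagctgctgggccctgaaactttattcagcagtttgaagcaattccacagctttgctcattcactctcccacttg
Lum: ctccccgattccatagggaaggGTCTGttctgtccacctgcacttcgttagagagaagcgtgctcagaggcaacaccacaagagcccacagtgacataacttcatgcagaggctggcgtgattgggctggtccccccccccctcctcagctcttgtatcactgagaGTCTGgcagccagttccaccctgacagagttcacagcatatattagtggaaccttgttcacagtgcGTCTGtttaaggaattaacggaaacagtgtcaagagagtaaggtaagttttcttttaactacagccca
Fbn1: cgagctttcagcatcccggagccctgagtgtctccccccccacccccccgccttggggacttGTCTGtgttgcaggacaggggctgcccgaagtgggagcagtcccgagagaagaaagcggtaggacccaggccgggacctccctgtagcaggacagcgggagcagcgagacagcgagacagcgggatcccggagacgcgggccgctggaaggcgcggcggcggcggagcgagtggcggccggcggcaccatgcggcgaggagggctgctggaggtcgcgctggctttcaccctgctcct
The Ogn window held 2 overlapping matches to TATAAA, 1 match to CAGAC and 1 match to GGAATG, the Lum window 3 to CAGAC, and the Fbn1 window 1 to CAGAC. Of 33469 windows of the same length, 14.2% held TATAAA, 50.1% CAGAC, 7.33% TGANTCA and 14.2% GGAATG, and none of the 3 windows held TGANTCA.

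Ogn, which encodes osteoglycin, was below the array median in every allograft and above it in every isograft on all 4 of its probesets. On the brightest, 1376749_at, the allografts measured 0.531, 0.279, 0.789, 0.507 and 0.6 array medians and the isografts 14.4, 13.3, 16.3 and 17.1. The native BN hearts measured 2.53, 2.45, 1.46, 2.69 and 2.02 and the native DA hearts 8.53, 10.8, 8.91 and 9.45. No 2 of the 4 groups overlapped, and the order was allograft, native BN, native DA and isograft. The allograft mean was 29.6-fold below the isografts (log2 fold change −4.89, SE 0.24) and 18.3-fold below the native DA hearts, which are of the same strain as the grafts. Probeset 1383263_at had the widest gap, with 0.0181 to 0.256 array medians in allografts and 5.96 to 7.1 in isografts, a log2 fold change of −6.67 (SE 0.59). Probesets 1385248_a_at and 1390450_a_at gave −4.90 (SE 0.62) and −4.81 (SE 0.59). Without allograft 3 the value of 1385248_a_at was −4.19, and without allograft 4 that of 1390450_a_at was −4.20. Against native DA hearts these probesets had −4.10 and −3.55, and −3.39 and −2.94 without those same allografts. Because allograft signals were so low, these sizes depend on how low signals are treated: with 0.25 array medians added before the logarithm the log2 fold changes of 1376749_at, 1383263_at, 1385248_a_at and 1390450_a_at were −4.32, −4.29, −3.05 and −2.93.

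Mfap4, the gene of a microfibril-associated glycoprotein, was also far below isografts in every allograft. The allografts measured 1.14, 0.429, 2.27, 0.192 and 0.102 array medians and the isografts 15.5, 23.1, 19.3 and 15.6. Native BN hearts had 1.91, 3.4, 1.55, 1.74 and 3.23 and native DA hearts 3.2, 3.17, 6.47 and 4.36. All allografts lay below all isografts and all native DA hearts, and allograft 5 alone reached the range of the native BN hearts. The log2 fold change was −5.29 (SE 0.66) against isografts, −3.15 (SE 0.66) against native DA hearts and −2.27 (SE 0.62) against native BN hearts. With 0.25 array medians added before the logarithm these were −4.49, −2.42 and −1.61.

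Dcn, which encodes decorin, was lower in allografts, while isografts and both native groups overlapped each other. The allografts measured 9.51, 6.83, 36.7, 10.4 and 3.4 array medians and the isografts 59.7, 45.7, 50.7 and 53.8. The native BN hearts measured 50.2, 65.3, 47.3, 39.8 and 41.4 and the native DA hearts 34.1, 41, 40.9 and 47.8. All allografts lay below all isografts and all native BN hearts, whereas allograft 5 lay within the range of the native DA hearts. The log2 fold change was −2.43 (SE 0.44) against isografts and −2.07 (SE 0.44) against native DA hearts.

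**Figure D1:**
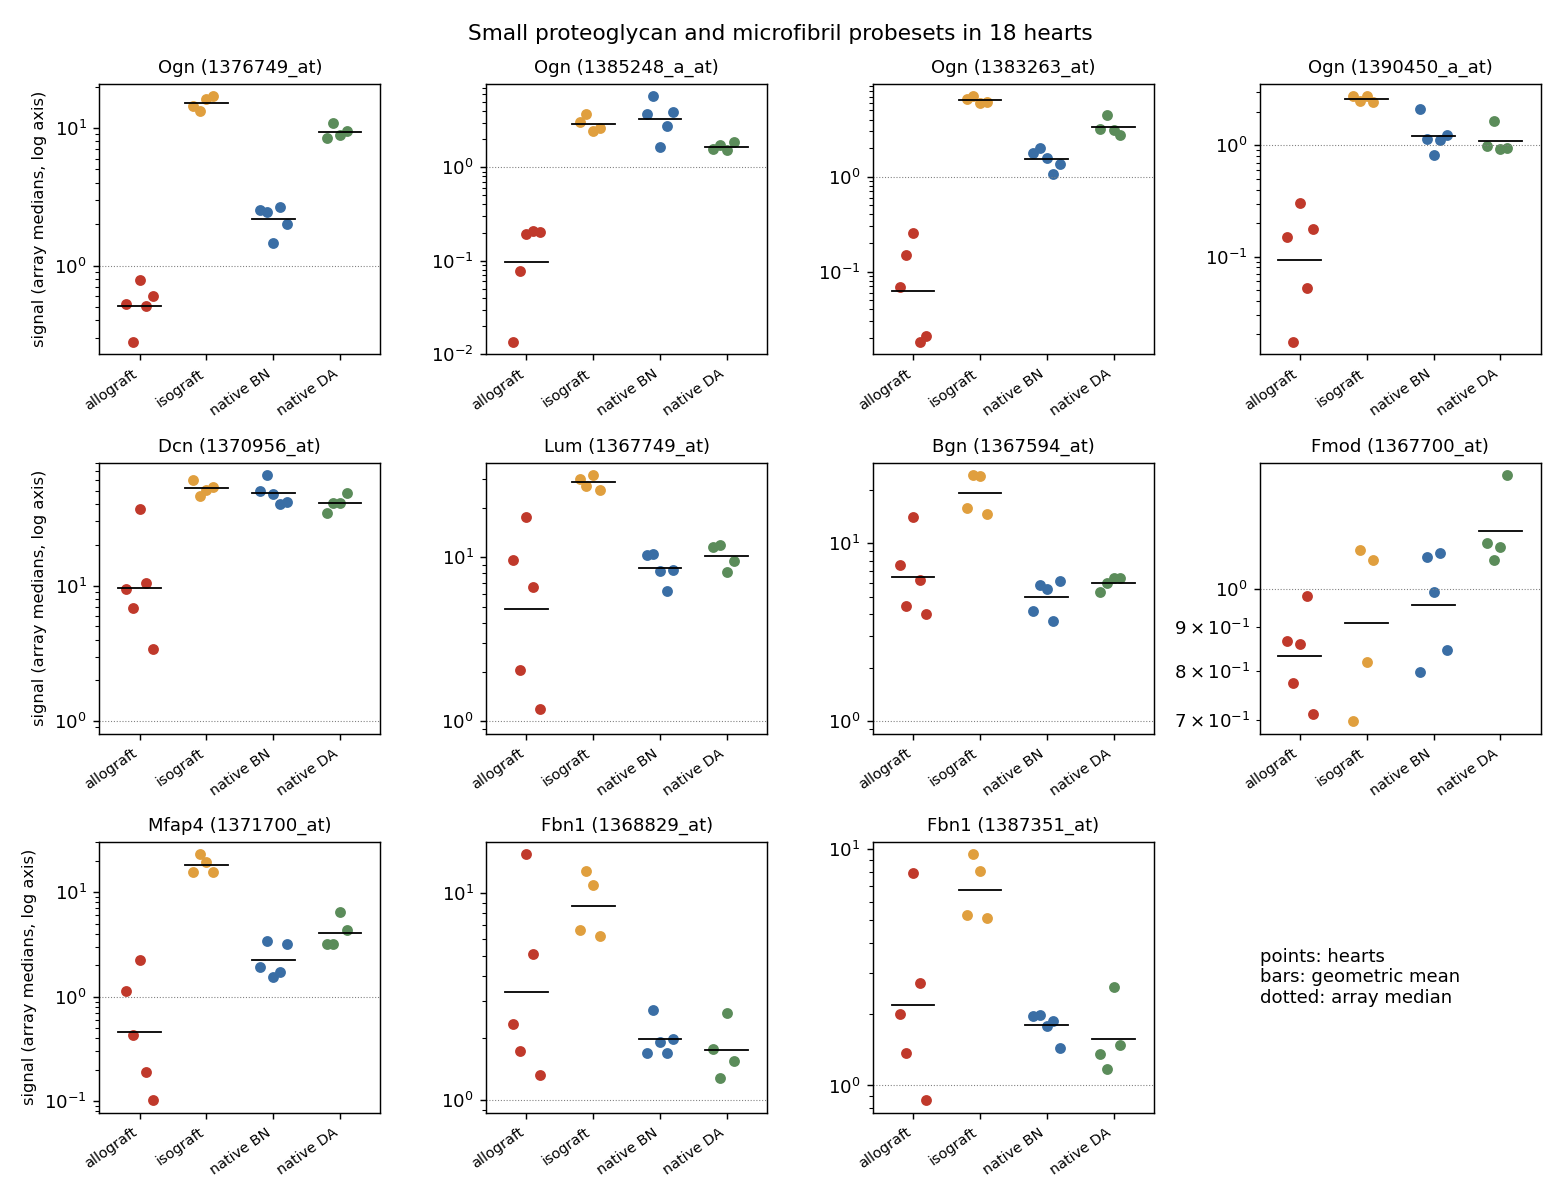
Signal in array medians (log axis, 1 panel per probeset, each with its own scale) for 5 allografts, 4 isografts, 5 native BN and 4 native DA hearts, with points for hearts, bars for geometric means and a dotted line at the array median. All 4 Ogn probesets lie below the array median in every allograft, and Fbn1 allografts overlap both the native hearts and the isografts.

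Lum, the gene of lumican, was lower in allografts mainly against the high level of the isografts. The allografts measured 9.6, 2.04, 17.7, 6.59 and 1.19 array medians and the isografts 30.3, 27.1, 31.8 and 25.9. Native BN hearts had 10.3, 10.5, 8.22, 6.26 and 8.32 and the native DA hearts 11.6, 11.9, 8.2 and 9.5. Every allograft was below every isograft, but the allografts spread 14.9-fold among themselves and fell on both sides of the native hearts. The log2 fold change was −2.56 (SE 0.56) against isografts, −1.07 (SE 0.56) against native DA and −0.82 (SE 0.52) against native BN hearts.

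Bgn, the gene of biglycan, was lower in allografts than in isografts but at the level of native hearts. The allografts measured 7.54, 4.42, 14, 6.22 and 4.01 array medians and the isografts 15.8, 24.2, 23.9 and 14.7. The native BN hearts measured 4.16, 5.81, 5.56, 3.68 and 6.11 and the native DA hearts 5.31, 5.96, 6.39 and 6.42. The allografts did not overlap the isografts, by the narrow margin of 14 in allograft 5 against 14.7 in isograft 13, and overlapped both native groups. The log2 fold change was −1.56 (SE 0.30) against isografts, 0.12 (SE 0.30) against native DA and 0.39 (SE 0.28) against native BN hearts.

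Fbn1 was the member with the most overlap between grafts, apart from Fmod. On 1368829_at the allografts measured 2.34, 1.74, 15.4, 5.07 and 1.32 array medians and the isografts 6.62, 12.8, 10.9 and 6.2. In native BN hearts the values were 1.7, 2.73, 1.92, 1.7 and 1.97 and in native DA hearts 1.77, 1.28, 2.63 and 1.55. Allograft 5 was above all isografts, while the other 4 allografts were below them. The log2 fold change against isografts was −1.37 (SE 0.53) on this probeset and −1.62 (SE 0.46) on 1387351_at, and against native DA hearts it was 0.95 (SE 0.53) and 0.48 (SE 0.46). Without allograft 5 the values against native DA hearts were 0.39 and 0.02.

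Fmod, the gene of fibromodulin, stayed close to the array median in all hearts, at 0.711 to 0.979 array medians in allografts, 0.698 to 1.11 in isografts, 0.798 to 1.1 in native BN and 1.08 to 1.36 in native DA hearts. Its log2 fold change was −0.13 (SE 0.16) in allografts against isografts and −0.49 (SE 0.16) against native DA hearts. Its signal reached the array median in 0 of 5 allografts, 2 of 4 isografts, 2 of 5 native BN and 4 of 4 native DA hearts, and all allografts lay below all native DA hearts.

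Set side by side, 8 of the 11 probesets were at least 3-fold lower in allografts than in isografts, where 6.56% of all probesets were. These were the 4 of Ogn, those of Dcn, Lum and Mfap4, and 1387351_at of Fbn1. Against native DA hearts 6 of the 11 were at least 3-fold lower (8.67% of all probesets), and against native BN hearts also 6 (7.65%), in both cases the probesets of Ogn, Dcn and Mfap4. Allografts and isografts did not overlap, with all allografts lower, for 8 probesets (15.9% of all), those of Ogn, Dcn, Lum, Bgn and Mfap4. Since the genes were chosen from the first of these comparisons, and the others share its allografts, the shares are given for scale only. The median log2 fold change of the member probesets was −2.56 in allografts against isografts, where that of all probesets was 0.02, and −2.07 against native DA hearts, where that of all probesets was −0.12.

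**Figure D2:**
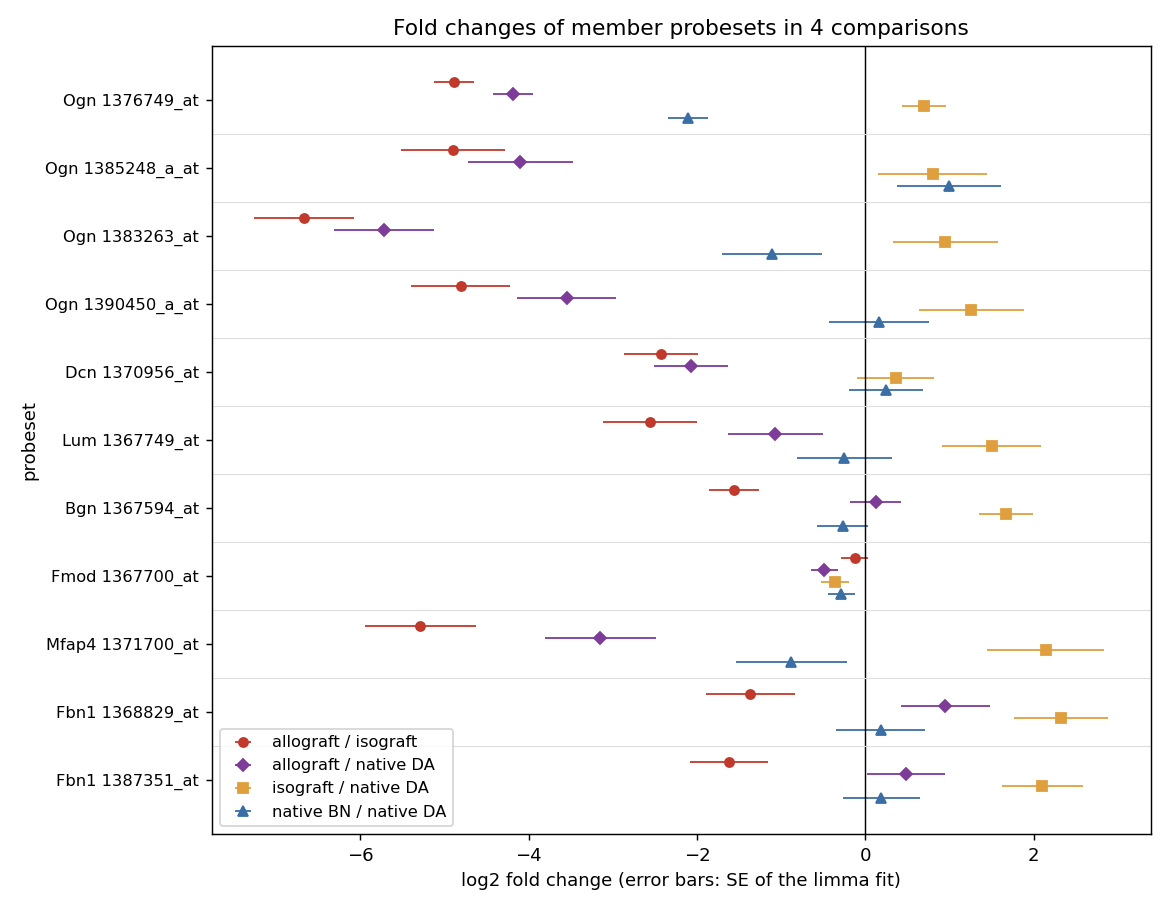
Log2 fold change of each of the 11 probesets (x axis, error bars SE of the fit) for allograft over isograft, allograft over native DA, isograft over native DA and native BN over native DA. Ogn, Dcn, Mfap4, Lum and Fmod are negative against both isografts and native DA hearts, with Lum (−1.07) and Fmod (−0.49) nearest 0 against native DA hearts. Bgn (0.12) and Fbn1 (0.95 and 0.48) lie at or above 0 against native DA hearts.

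The allografts differed widely from each other. Allograft 5 had the highest value among allografts for 9 of the 11 probesets and allograft 7 the lowest for 7. Log2 values had an SD of 1.2 to 1.8 in allografts for Dcn, Lum, Mfap4 and Fbn1, against 0.14 to 0.52 in isografts. The fibroblast marker sum, too, was highest in the first and lowest in the second of these hearts: it was 169 in allograft 5, 112 in allograft 3, 98.9 in allograft 6, 41.3 in allograft 4 and 21.6 in allograft 7. Allograft 5 also had the lowest heart muscle sum (73.5) and the lowest leukocyte sum (131) of the allografts. Allograft 7 had the highest ratio of 3′ to 5′ control signal of all 18 hearts, 1.9 for GAPDH and 3.63 for beta-actin, where the other allografts had 1.2 to 1.28 and 1.26 to 1.97. The part of cell composition and RNA quality in these values was not tested. Without allograft 5, 10 of the 11 probesets were at least 3-fold lower than in isografts in place of 8, both Fbn1 probesets and Bgn being among them at −1.93, −2.08 and −1.84. The share of all probesets without allograft 5 was not calculated.

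**Figure D3:**
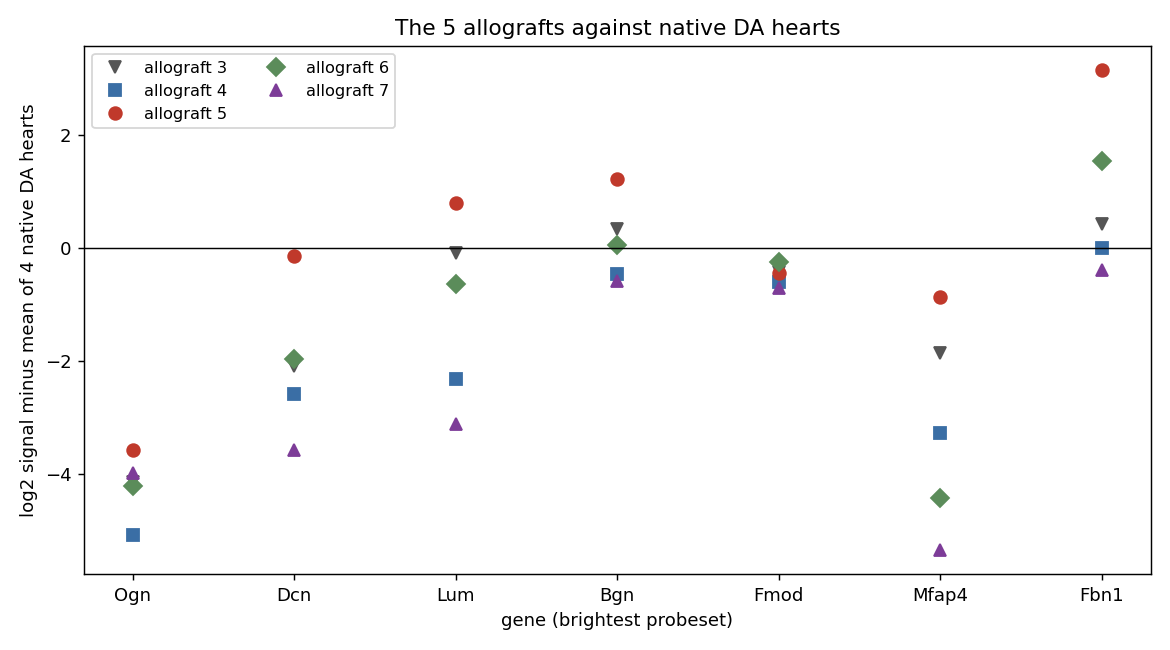
Log2 signal of each of the 5 allografts minus the mean log2 signal of the 4 native DA hearts (y axis) for the brightest probeset of each gene (x axis). Ogn lies far below 0 in all 5 allografts, whereas Dcn, Lum, Mfap4 and Fbn1 are spread out, with allograft 5 at the top and allograft 7 at the bottom.

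The next comparison asked how transplantation alone moved these genes, with isografts set against the native DA hearts of their own recipients. The isografts also serve as the baseline of the allograft comparison above, so a high isograft level widens that gap. Choosing genes that are lower in allografts than in isografts also favours genes that are high in isografts, so the adjusted p-values and counts of the members here are not independent of that choice and are given as a description. Bgn rose 3.19-fold in isografts (log2 fold change 1.67, SE 0.32, limma adjusted p = 0.00552). Fbn1 rose on both probesets, by 2.32 (SE 0.56, limma adjusted p = 0.0205) and 2.10 (SE 0.48, adjusted p = 0.0168) on the log2 scale. Mfap4 rose by 2.14 (SE 0.69, limma adjusted p = 0.0675), but this call was lost with recipient as a replicate block (adjusted p = 0.121) and on leaving out isograft 11, isograft 12 or native DA heart 9, 11 or 13, where the adjusted p was 0.127 to 0.143. In all, 4 of the 11 member probesets passed upward (7.15% of all probesets) and 0 downward (6.59% of all), shares that are given for scale only.

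The remaining probesets did not pass, and most had all isografts above all native DA hearts. Lum had a log2 fold change of 1.5 (SE 0.59, limma adjusted p = 0.126), Dcn 0.36 (SE 0.46, adjusted p = 0.672) and Fmod −0.36 (SE 0.17, adjusted p = 0.214). The Ogn probesets had 0.70 to 1.26, with adjusted p of 0.107 to 0.477. The isografts were all above the native DA hearts for 9 of the 11 probesets (8.68% of all probesets), the exceptions being Dcn and Fmod. Within recipients the isograft was above its own native heart in 4 of 4 pairs for 10 probesets, and in 1 of 4 pairs for Fmod. How many of all probesets had every pair in that direction was not calculated. The allografts and native BN hearts share the error of the fit. With only isografts and native DA hearts fitted, 9 of the 11 passed upward, the additions being Lum (adjusted p = 0.00868) and the 4 Ogn probesets (0.0266 to 0.0543). The share of all probesets that passed in this smaller fit was not calculated, so this count has no scale beside it.

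Among the isografts, hearts 11 and 12 stood above hearts 9 and 13 for Bgn, Fbn1 and Mfap4. Bgn was 24.2 and 23.9 array medians in the first pair and 15.8 and 14.7 in the second, and Fbn1 (1368829_at) was 12.8 and 10.9 against 6.62 and 6.2. Mfap4 was 23.1 and 19.3 against 15.5 and 15.6. The fibroblast marker sum was 193 and 179 in isografts 11 and 12 and 136 and 138 in isografts 9 and 13, and the heart muscle sum 381 and 435 against 666 and 628. Ogn and Dcn did not follow that order, since Ogn 1376749_at was highest in isografts 12 and 13 and Dcn in isografts 9 and 13. Lum and Fmod did not follow it either. The mural and smooth muscle sum was 20.2 in both isografts 11 and 12, and 12.8 and 11.8 in isografts 9 and 13. The 3′ to 5′ ratio was 1.24 and 1.39 for GAPDH and 1.3 and 2.04 for beta-actin in isografts 11 and 12, against 1.6 and 1.63 for GAPDH and 2.72 and 2.71 for beta-actin in isografts 9 and 13. The part of these measures was not tested.

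Within BN recipients the allograft was below the recipient's native heart in 5 of 5 pairs for Dcn and all 4 Ogn probesets, and in 4 of 5 pairs for Mfap4. Lum was lower in 3 of 5 allografts. Bgn and both Fbn1 probesets were higher in 3 of 5. The graft and the native heart of these pairs differ in strain as well, so the pair differences hold both. Pair counts were not calculated over all probesets, so those of the members are a description.

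Native BN and native DA hearts, compared to read the strain, differed for 1 member probeset. Ogn 1376749_at was 4.3-fold lower in native BN hearts (log2 fold change −2.11, SE 0.24), at 1.46 to 2.69 array medians in native BN and 8.53 to 10.8 in native DA hearts. Since this difference was known when the genes were listed, its limma adjusted p of 0.000201 is a description. The other Ogn probesets did not pass. Probeset 1383263_at was also lower in native BN hearts (−1.11, SE 0.59, limma adjusted p = 0.422). It measured 1.08 to 2.02 array medians in native BN and 2.73 to 4.47 in native DA hearts, without overlap. Probeset 1390450_a_at had 0.16 (SE 0.59, adjusted p = 0.939) and 1385248_a_at 0.99 (SE 0.62, adjusted p = 0.516). With 0.25 array medians added before the logarithm, 1383263_at passed lower (limma adjusted p = 0.00745) and 1385248_a_at higher (adjusted p = 0.0605). On 1385248_a_at the native BN hearts measured 3.73, 5.79, 1.65, 2.79 and 3.92 array medians and the native DA hearts 1.58, 1.73, 1.53 and 1.84, the opposite direction to 1376749_at. With the mean of the 4 probesets the log2 fold change of Ogn was −0.52 (adjusted p = 0.477). The 4 probesets thus had no common direction between the native groups, and all 4 had the allografts lowest. The 3′ to 5′ ratio of GAPDH was 1.07 to 1.27 in native BN and 1.28 to 1.63 in native DA hearts, and the sum of 4 endothelial markers was 16.5 to 21.4 in native BN and 10.8 to 13.3 in native DA hearts. The part of RNA quality and cell composition in the strain values was not tested.

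The other 6 genes did not pass for strain. Their log2 fold changes ran between −0.88 (SE 0.66) for Mfap4 and 0.24 (SE 0.44) for Dcn, with limma adjusted p of 0.462 to 0.923. The member count was thus 1 lower (1.46% of all probesets) and 0 higher (1.48% of all), and the median log2 fold change of the members was −0.25 where that of all probesets was −0.02.

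The members were next placed among 45 measured genes of 63 listed for small proteoglycans, microfibrils with elastic fibres, and large, cell-surface and other proteoglycans, each by its brightest probeset. In isografts against native DA hearts 11 of the 45 rose, 1 fell and 33 did not pass, and the median log2 fold change was 0.62. Of the 38 genes that are not members 8 rose and 1 fell, with a median of 0.56. Of all probesets 7.15% rose and 6.59% fell, with a median of −0.08. Here and below, such shares cover all probesets, dim ones included, whereas list genes are counted by their brightest probeset. Shares over the brightest probesets of all genes were not calculated, so the 2 are not on a like scale. None of the 4 other small proteoglycans measured (Aspn, Prelp, Omd and Chad) passed. Of the 18 other microfibril and elastic fibre genes 5 rose, among them Emilin1, the gene of an elastic fibre glycoprotein (2.76, limma adjusted p = 0.0219), Ltbp2, the gene of a latent TGF-beta binding protein (2.41, adjusted p = 0.00579), Eln, the elastin gene (1.12, adjusted p = 0.0307) and Ltbp3 (1.07, adjusted p = 0.0134). The size for Emilin1 rests on low signals, with geometric means of 0.129 array medians in native DA hearts and 0.872 in isografts. Of the 16 large, cell-surface and other proteoglycans 3 rose, the basement membrane gene Hspg2 (0.84, limma adjusted p = 0.0328), the syndecan gene Sdc1 (0.81, adjusted p = 0.0664) and the agrin gene Agrn (0.59, adjusted p = 0.0568), and the glypican gene Gpc1 fell by 0.62 (adjusted p = 0.036). For strain, Ogn was the single gene of the 45 that passed, being lower, where 1.46% of all probesets were.

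In allografts against isografts 14 of the 45 genes were at least 3-fold lower and 4 at least 3-fold higher, with a median log2 fold change of −0.83 that includes the members. Of the 38 genes that are not members 10 were at least 3-fold lower and 4 at least 3-fold higher, with a median of −0.62, where 6.56% of all probesets were at least 3-fold lower, 5.47% at least 3-fold higher and the median was 0.02. Aspn, the asporin gene, had −3.75 (SE 0.63) and Omd, the osteomodulin gene, −2.31 (SE 0.27). In GRCr8 these adjoin Ogn on chromosome 17 in the order Ogn, Omd, Aspn, and Lum adjoins Dcn on chromosome 7. Ltbp2 had −3.47 (SE 0.44), the fibulin-like gene Efemp1 −3.20 (SE 0.63), Mfap2 −3.10 (SE 0.66) and Ltbp4 −2.99 (SE 0.36). The allograft geometric means of Aspn, Omd, Ltbp2, Efemp1, Mfap2 and Ltbp4 lay below the array median, at 0.142, 0.35, 0.213, 0.184, 0.123 and 0.76 array medians. With 0.25 array medians added before the logarithm their log2 fold changes were −2.33, −1.71, −2.48, −1.98, −1.71 and −2.59. The third list was split: the glypican genes Gpc6 and Gpc1 had −2.74 (SE 0.60) and −2.01 (SE 0.16), Gpc6 being −2.10 with the added 0.25 array medians, while Sdc1 had 3.17 (SE 0.25) and Vcan, the versican gene, 2.34 (SE 0.37). No small proteoglycan of the list was at least 3-fold higher.

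**Figure D4:**
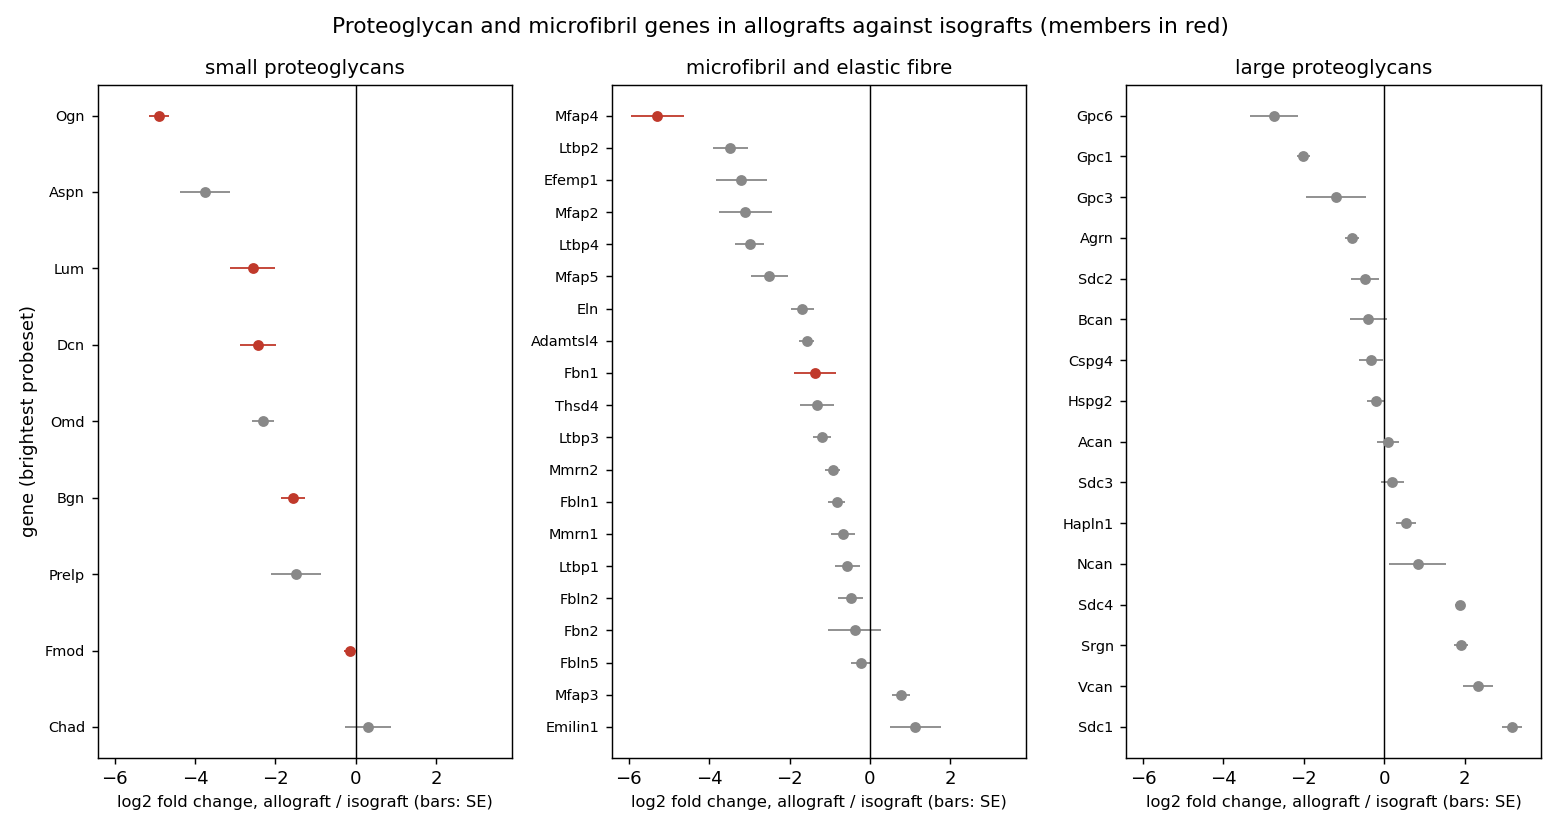
Log2 fold change of allografts over isografts (x axis, error bars SE of the fit) for the measured genes of 3 lists, ordered within each list, with the members in red. Ogn and Mfap4 lie at the low end of their lists, and the 4 genes at least 3-fold higher (Sdc4, Srgn, Vcan and Sdc1) all belong to the list of large, cell-surface and other proteoglycans.

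Genes of the TGF-beta pathway were listed because decorin, biglycan and the microfibrils bind this growth factor. In isografts against native DA hearts 7 of 13 rose, led by Ccn2, a matricellular target of TGF-beta (2.34, limma adjusted p = 9.3e-05), the ligand Tgfb1 (1.66, adjusted p = 0.00128), the receptor Tgfbr1 (1.57, adjusted p = 0.00116) and the ligand Tgfb3 (1.49, adjusted p = 0.000147). Of all probesets 7.15% rose in this comparison, a share that is not limited to the brightest probeset of each gene. In allografts against isografts the log2 fold change was 3.64 (SE 0.21) for the TGF-beta-induced matrix gene Tgfbi, 1.75 (SE 0.22) for Tgfbr1, 1.66 (SE 0.23) for Tgfb1 and −1.5 (SE 0.16) for Tgfb3. For strain, Smad7 (1.54, limma adjusted p = 0.0945) and Ccn2 (0.92, adjusted p = 0.0659) were higher in native BN hearts. The Smad7 value comes from the brightest of 3 probesets and rests on low signals that overlapped. They were 0.818 to 2.13 array medians in native BN and 0.172 to 1.13 in native DA hearts.

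The 7 genes fell into unlike profiles over the 18 hearts. Likeness was measured as the root mean square difference between log2 profiles, each centred on its own mean, where a smaller value is more alike. Among the members Bgn and Fbn1 were closest (0.54), then Lum and Bgn (0.733) and Lum and Dcn (0.789), and Fmod and Mfap4 were farthest apart (2.04). The measure is not scaled by each gene's own spread, which was 2.1 for Mfap4, 0.84 for Bgn and 0.261 for Fmod. The ranking therefore reflects sizes of spread as well as shared shape. The closest other genes were Sphkap (0.798), Dpt (0.858) and Lad1 (0.874) for Ogn, and Aspn (0.891), Dpt (1.04) and Ogn (1.05) for Mfap4. Dcn was closest to Gpx3 (0.394), C1s (0.42) and Rnase4 (0.43), and Lum to Mmp2 (0.479), Gpc6 (0.489) and Mfap5 (0.515). Bgn was closest to Rcn3 (0.341), Fstl1 (0.351) and the collagen gene Col6a1 (0.36), and Fbn1 to Col6a1 (0.351), Col6a3 (0.388) and Col5a2 (0.402). Fmod was closest to Itgb4 and Polr3d (0.194 each) and Usb1 (0.202), at a spread of its own of 0.261, so that its neighbours are other nearly flat profiles. Of the fibroblast markers, Dpt, Pdgfra and Tcf21 had log2 fold changes of −4.21, −3.13 and −2.36 in allografts against isografts, and the collagen genes Col3a1, Col1a2 and Col1a1 had −1.39, −0.63 and −0.50, while Thy1 had 0.50 (SE 0.49).

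In peripheral blood mononuclear cells (PBMC), measured on 20 arrays of another type, Ogn, Lum, Mfap4 and Fmod were below the array median in every sample. Dcn reached it on 1 array, and Fbn1 on 7 arrays with 1368829_at and on 1 with 1387351_at. Bgn differed from the others, at 5.14 to 16.6 array medians over the 20 arrays. It measured 5.14 to 9.53 in 5 BN allograft recipients, 9.22 to 16.6 in 9 DA isograft recipients, 8.27 to 12.3 in 3 untransplanted BN and 9.28 to 12.2 in 3 untransplanted DA rats. Samples of transplanted and of untransplanted rats formed separate processing batches in the study, so batch and transplantation cannot be told apart. Among recipients each strain received 1 type of graft, and the array types differ, so these levels are set against neither each other by test nor the heart levels. The part of infiltrating leukocytes in the Bgn signal of allografts was not tested.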

How the data were processed

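Heart RNA was hybridized to Affymetrix RAE230A arrays and PBMC RNA to RAE230 2.0 arrays, 1 array per sample. The deposited values are MAS5 signal intensities, 1 per probeset, which the authors scaled to a common trimmed mean, and the MAS5 version is not given in the sources used here. After leaving out 57 control probesets, each array was divided by its median and transformed to log2. The heart array medians ran between 38.3 and 50.8, and precision is limited by how many arrays each group has. The 4 heart group means were fitted in limma 3.58.1 (R 4.3.3) with lmFit and eBayes. The threshold was 0.10 for p-values adjusted by the Benjamini-Hochberg method over 15866 probesets. SE values come from this fit, which uses 1 spread per probeset for all 4 groups. The fit was run on simulated data with equal spread in every group. That run cannot show how unequal spread, such as that of the allografts, affects the SE values. Gene names follow the platform annotation, updated through the gene identifier to GRCr8. Of the probesets, 12783 had 1 symbol.

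Hearts with the same number came from the same recipient, as the titles and the transplant model give it. After removal of group means the correlation between the hearts of a pair was −0.04 to 0.12. Each recipient is its own animal, and the p-values reflect variation among animals.

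The members and gene lists were chosen with earlier results of these data known. Every member probeset is named, together with up to 4 other genes per list and direction that passed with the largest change, up to 4 per list with the largest fold in allografts against isografts, and the 3 closest profiles per member. The fibroblast markers were named after their values were seen. Alternatives covered scaling, low signals, filters, the groups fitted, variance moderation, probesets per gene, each heart left out and recipient as a block.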

Additional observations from a re-analysis of the deposited data

Results flagged for a closer look

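Of 44 groups of member values checked for a single sample far from the rest, 6 were flagged. The check used signals in array medians, not log2 values, and on that scale high values stand out more. Its rate of about 1 in 20 groups flagged by chance holds only for normally distributed values. All 6 flagged values were the highest of their group, so the flags are a description. Allograft 5 was far above the other allografts for Dcn (36.7 array medians, the next allograft having 10.4), for Fbn1 1368829_at (15.4, the next 5.07) and for Fbn1 1387351_at (7.94, the next 2.71). Native BN heart 4 was highest for Fbn1 1368829_at (2.73, the next 1.97). Native DA heart 11 was highest for Ogn 1390450_a_at (1.65, the next 0.995), and native DA heart 13 for Fmod (1.36, the next 1.13).

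For 5 probesets every isograft was above its recipient's native heart and every allograft was below its recipient's native heart. The highest allograft pair difference and the lowest isograft pair difference on the log2 scale were −0.89 and 0.3 for Ogn 1376749_at, −3.08 and 0.53 for 1385248_a_at, −2.64 and 0.67 for 1383263_at, −1.45 and 0.59 for 1390450_a_at, and −0.37 and 0.16 for Dcn. The difference between the recipient groups was not tested, since the genes were chosen for low values in allografts. The share of all probesets with this pattern was not calculated.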

How the results depend on the processing

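Shares of all probesets were calculated for the main fit only, so the counts under the alternatives have no scale beside them. The count of member probesets that rose in isografts against native DA hearts was 4, and became 9 with 0.25 array medians added before the logarithm and 9 with only these groups fitted. It was 3 to 4 with each heart left out and 3 with the recipient as a replicate block, which took away the call of Mfap4 and no other member call. Of the 45 proteoglycan and microfibril genes 11 rose, against 20 with the added 0.25 array medians, 20 with dim probesets left untested, 18 with only these groups fitted, 10 with the replicate block and 7 to 11 with each heart left out (7 without native DA heart 9). The count that fell was 1, against 2 with quantile normalization, with dim probesets left untested or without variance moderation, and 0 to 1 with each heart left out (0 without isograft 12). For strain, 1 member probeset was lower and 0 higher, against 2 lower and 1 higher with the added 0.25 array medians and 2 lower with only the native hearts fitted. Of the 45 genes, 0 were higher and 1 lower for strain, against 1 higher with dim probesets left untested and 0 lower with the mean of all probesets of a gene. Ogn 1390450_a_at had a strain log2 fold change of 0.16, and −0.03 to 0.36 with each heart left out, the negative value being without native BN heart 3. The cause of these changes was not tested. Fitting only 2 groups takes the spread of both other groups, the allografts among them, out of the error, and no fit left out the allografts alone. The count at least 3-fold lower in allografts than in isografts was 8, and 7 to 10 with each heart left out. It was 6 against either native group under every alternative run. The mean over probesets gives no count of member probesets. Signals below the array median limit the fold sizes of Ogn, Mfap4 and several list genes in allografts, and the added 0.25 array medians for list genes that are not members were chosen after seeing the data.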
